A study of Canis lupus familiaris with 12 samples.

Results

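This account covers the probes for 5 nuclear receptor genes, PPARA, PPARD, PPARG, ESRRA and NR4A1, in a dog melanoma cell line exposed to anti-inflammatory drugs. The members were every probe whose accession in the array design is the dog RefSeq transcript of one of these genes, and each probe is reported apart. They are 5 of the 832 genes that could be named on the array, with 9 of its 43603 probes: 2 for PPARA (NM_001003093), 2 for PPARD (NM_001048102), 2 for PPARG (NM_001024632), 2 for ESRRA (NM_001002936) and 1 for NR4A1 (NM_001003227). A probe was tested where its spot was well above background, by the scanner software's own call, on all 3 arrays of at least 1 group. The 5 PPARD, ESRRA and NR4A1 probes met this on all 12 arrays and were tested. The 4 PPARA and PPARG probes did not and were not tested.

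The cells were Mi/CMM1, a line grown from an oral melanoma of a dog, and messenger RNA was measured on one-colour (Cy3) Agilent arrays. There were 4 groups of 3 arrays: cells given piroxicam, cells given carprofen, cells given robenacoxib, and control cells with no treatment, for which no vehicle was named. All 3 drugs are nonsteroidal anti-inflammatory drugs, which inhibit cyclooxygenases, and each was used at the concentration that inhibits the cells half-maximally. By the sample labels the exposure lasted 6 h, at 116 µM for piroxicam, 779 µM for carprofen and 156 µM for robenacoxib. The treatment protocol gives 779 µM for piroxicam, 116 µM for carprofen, 156 µM for robenacoxib and 24 h, and the conflict was not settled here. The drugs therefore differed in concentration in either version, and every comparison between drugs below is one of unmatched doses in a single cell line.

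Nuclear receptors are transcription factors, many of which are switched by small fat-soluble ligands. The peroxisome proliferator-activated receptors (PPARs) bind fatty acids and their derivatives, pair with retinoid X receptors on DNA and control genes of lipid use and storage: PPARA is best known in liver and heart, PPARG in fat cells, and PPARD is made in most tissues. ESRRA is an orphan receptor, without a settled natural ligand, that works with PGC-1 coactivators on genes of mitochondrial energy metabolism. NR4A1 (Nur77) is an orphan receptor encoded by an immediate early gene, one that cells switch on quickly after many stimuli without first making new protein.

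The arrays lay on 3 slides, each scanned as a unit. Slide 1 held carprofen 1 and the 3 controls, slide 2 held piroxicam 1 and 2 and carprofen 2 and 3, and slide 3 all 3 robenacoxib arrays and piroxicam 3. Neither piroxicam nor robenacoxib shared a slide with control, so each comparison was also fitted with slide as a block. On the first principal component, which held 28.1% of the variance, piroxicam 3 (56.34) and control 3 (-32.22) lay farthest out on either side, and values without these 2 arrays are given for PPARD with piroxicam, ESRRA with robenacoxib, and the carprofen and robenacoxib differences from piroxicam. MITF, the master regulator of melanocytes, was well above background on 12 arrays, whereas TYR, the pigment enzyme tyrosinase, and EDNRB were so on 0 arrays. Levels are log2 signals relative to each array's 75th percentile, and changes are log2 differences in these levels with limma's standard error (SE) and Benjamini-Hochberg adjusted p-values over all 31998 tested probes, called at 0.05. A change is thus relative to the array as a whole. When arrays were scaled instead to the spiked-in RNA, all changes against control moved up, those of piroxicam by 0.173, those of carprofen by 0.344 and those of robenacoxib by 0.3. These p-values reflect only how arrays of a group spread; the replicates are described as biological, but how separate the cultures were is not given.

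PPARD was higher in piroxicam-treated cells than in control cells on both of its probes, by about the same amount. On probe A_11_P0000026350 the processed signal was 1723, 1790 and 1890 on the piroxicam arrays, 1306, 1390 and 1256 on the carprofen arrays, 1458, 1459 and 1388 on the robenacoxib arrays, and 1380, 1324 and 1311 on the control arrays. On probe A_11_P055031 it was 1200, 1160 and 1162 with piroxicam, 908, 946.1 and 900.8 with carprofen, 927.5, 975.2 and 938.9 with robenacoxib, and 845.4, 889.7 and 830.4 in control. On both probes the 3 piroxicam arrays were the brightest of the 12, with no overlap with any other group. In piroxicam against control alone, 21.6% of all tested probes were higher without overlap, and the share above all other groups is not given here.

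Relative to the 75th percentile, A_11_P0000026350 averaged -0.36 ± 0.05 with piroxicam and -0.66 ± 0.02 in control (SD, n = 3 each). PPARD thus rose 1.23-fold on this probe (log2 change 0.30, SE 0.04, adjusted p = 0.000548). A_11_P055031 averaged -0.98 ± 0.04 with piroxicam and -1.31 ± 0.05 in control, a 1.25-fold rise (0.33, SE 0.04, adjusted p = 0.000233). These were 2 of the 5 tested member probes, both higher; over all tested probes 27.8% were called in this comparison, and 12.1% were called higher. A change of at least this size in either direction was seen in 18.4% of tested probes for the first probe and in 15.9% for the second.

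Both PPARD calls held in the slide-block fit (0.33, adjusted p = 0.0368, and 0.40, adjusted p = 0.0219), which reaches control only through carprofen 1 and which called 5.08% of all tested probes. Without control 3 and piroxicam 3 the changes were 0.27 (adjusted p = 0.0116) and 0.33 (adjusted p = 0.00461). The probes parted under other ways of processing. In the authors' deposited value table A_11_P0000026350 differed by 0.29 and was still called, whereas A_11_P055031 differed by 0.15 (adjusted p = 0.0649); normexp background correction with 75th-percentile scaling left 0.28 on the first probe and 0.13 on the second (adjusted p = 0.143).

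With carprofen, PPARD did not move alike on its probes. A_11_P0000026350 averaged -0.83 ± 0.03 with carprofen and -0.66 ± 0.02 in control, and it fell by 0.17 (SE 0.04, adjusted p = 0.00823) relative to the array, but stood 0.17 higher (adjusted p = 0.00309) with spike-in scaling. That call was lost in the slide-block fit (-0.13, adjusted p = 0.123) and among the arrays of slide 1 (-0.13, adjusted p = 0.144). A_11_P055031 averaged -1.35 ± 0.05 with carprofen and -1.31 ± 0.05 in control, a difference of -0.04 (95% interval -0.12 to 0.04, adjusted p = 0.412) that became 0.30 with spike-in scaling.

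With robenacoxib, neither PPARD probe passed the test against control. A_11_P0000026350 averaged -0.64 ± 0.06 with robenacoxib and -0.66 ± 0.02 in control (difference 0.02, 95% interval -0.07 to 0.11, adjusted p = 0.761). A_11_P055031 averaged -1.24 ± 0.02 with robenacoxib and -1.31 ± 0.05 in control (0.07, 95% interval -0.01 to 0.15, adjusted p = 0.22). With spike-in scaling these differences were 0.32 and 0.37, and both were called.

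**Figure D1:**
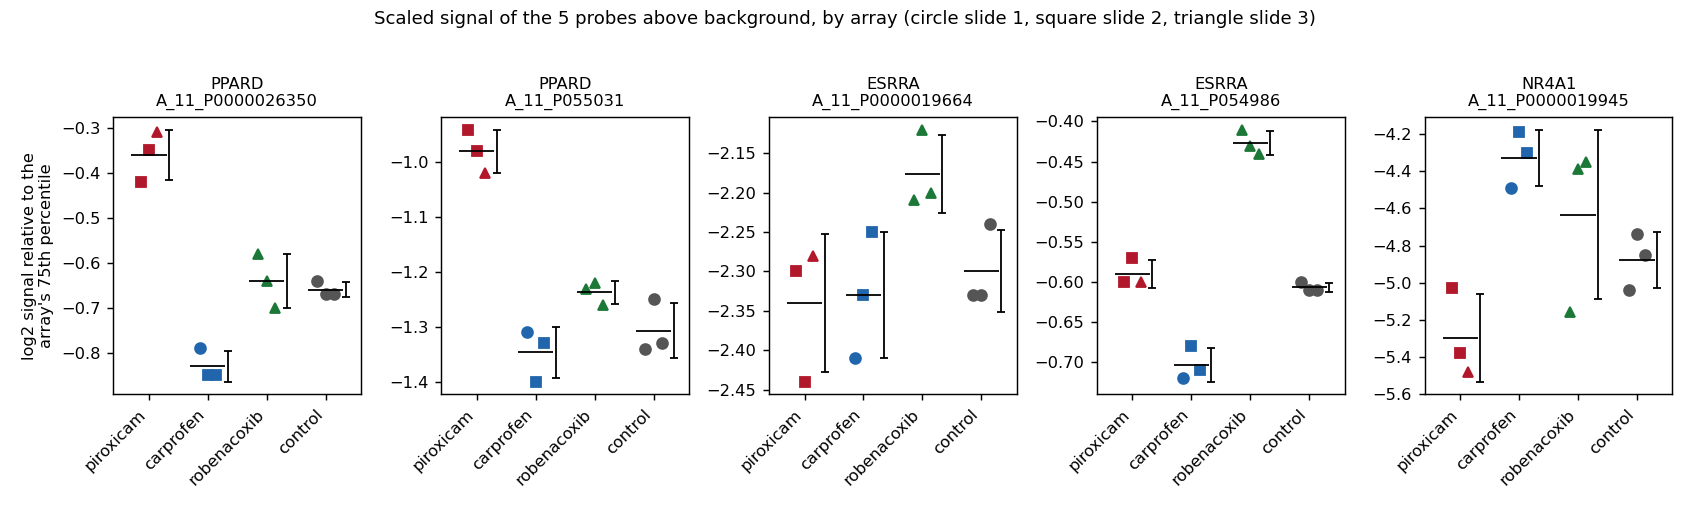
Level of the 5 tested member probes, each point 1 array, as log2 signal relative to that array's 75th percentile; the line is the group mean, the bar its SD (n = 3), and the marker shape gives the slide. On both PPARD panels the 3 piroxicam arrays lie above all 9 others, and on NR4A1 robenacoxib 1 lies far below the other two robenacoxib arrays.

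Between drugs, PPARD was lower with carprofen than with piroxicam on A_11_P0000026350 (-0.47, SE 0.04, adjusted p = 1.71e-05) and on A_11_P055031 (-0.37, SE 0.04, adjusted p = 4.69e-05). On slide 2, which held both drugs, these differences were -0.46 (adjusted p = 0.0273) and -0.41 (adjusted p = 0.0312). PPARD was also lower with robenacoxib than with piroxicam, by -0.28 (adjusted p = 0.000668) and -0.26 (adjusted p = 0.000688). On slide 3, where 3 robenacoxib arrays stood against piroxicam 3, the differences were -0.33 and -0.22 and neither was called (adjusted p = 0.12 for each). With spike-in scaling they were -0.15 (adjusted p = 0.0173) and -0.13 (adjusted p = 0.0855), and the second probe also lost its call after normexp correction at the 75th percentile (-0.18, adjusted p = 0.0586). Without control 3 and piroxicam 3, the carprofen differences from piroxicam were -0.44 and -0.39 and the robenacoxib ones -0.25 and -0.28, all 4 called. Robenacoxib against carprofen gave 0.19 (adjusted p = 0.0184) on the first probe and 0.11 (adjusted p = 0.0967) on the second, and the slide-block fit lost this call (0.14, adjusted p = 0.424).

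Relative to the array, the levels on both PPARD probes therefore ran from piroxicam through robenacoxib and control down to carprofen. On that scale the difference between piroxicam and robenacoxib was called on both probes. That between robenacoxib and control was called on neither, and that between carprofen and control on A_11_P0000026350 alone. With spike-in scaling control was instead the lowest group on both probes. Carprofen then stood above it by 0.17 on A_11_P0000026350 and by 0.3 on A_11_P055031, both called. Across the 12 arrays the 2 probes correlated at r = 0.914, a description that includes the group differences both share.

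ESRRA changed by small amounts, and its 2 probes differed in what passed the test. On probe A_11_P054986 the processed signal was 1520, 1540 and 1549 with piroxicam, 1372, 1564 and 1383 with carprofen, 1635, 1688 and 1657 with robenacoxib, and 1421, 1379 and 1362 in control. On probe A_11_P0000019664 it was 469.9, 419.9 and 482.1 with piroxicam, 425, 497.7 and 474.5 with carprofen, 470.8, 523.7 and 490.7 with robenacoxib, and 426.4, 418.9 and 440.4 in control. The robenacoxib arrays were the 3 brightest for A_11_P054986, while for A_11_P0000019664 they overlapped with the carprofen and piroxicam arrays in signal, though not once scaled. The share of all tested probes set apart in this way with robenacoxib is not given here. In carprofen against control, a different comparison, the groups did not overlap in either direction for 47% of tested probes. That share does not apply to the robenacoxib arrays.

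With robenacoxib, A_11_P054986 averaged -0.43 ± 0.01 and in control -0.61 ± 0.01, so that ESRRA rose 1.13-fold on this probe (0.18, SE 0.02, adjusted p = 0.000608). It was the 1 member probe of 5 called in this comparison, where 22.2% of all tested probes were called and 9.59% were called higher, and 29.6% of probes changed by at least as much. It was 0.18 without control 3 and piroxicam 3 as well (adjusted p = 0.00795). The call was lost in the slide-block fit (0.17, adjusted p = 0.181), which called 1.39% of all tested probes, and in the authors' deposited table (0.06, adjusted p = 0.398). A_11_P0000019664 averaged -2.18 ± 0.05 with robenacoxib and -2.30 ± 0.05 in control (0.13, 95% interval 0.00 to 0.25, adjusted p = 0.135), and its difference was -0.07 with slide as a block. With spike-in scaling both probes were called higher with robenacoxib, A_11_P054986 by 0.48 (adjusted p = 1.4e-05) and A_11_P0000019664 by 0.43 (adjusted p = 0.000329).

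With carprofen, A_11_P054986 averaged -0.70 ± 0.02, against -0.61 ± 0.01 in control, and fell by 0.09 relative to the array (SE 0.02, adjusted p = 0.0095), but was 0.25 higher with spike-in scaling. Together with PPARD A_11_P0000026350 this made 2 of 5 member probes called, both lower, where 32.7% of all tested probes were called and 19.3% were called lower. The ESRRA call was lost in the slide-block fit (-0.11, adjusted p = 0.0581), where 0 of 5 member probes and 16.4% of all tested probes were called. A_11_P0000019664 averaged -2.33 ± 0.08 with carprofen and -2.30 ± 0.05 in control (-0.03, 95% interval -0.15 to 0.10, adjusted p = 0.745).

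With piroxicam neither ESRRA probe passed the test against control. A_11_P054986 averaged -0.59 ± 0.02 with piroxicam and -0.61 ± 0.01 in control (0.02, 95% interval -0.03 to 0.07), and the sign turned with normexp and 75th-percentile scaling, where the fall was called (-0.14, adjusted p = 0.0476), and in the authors' deposited table, where it was not (-0.13, adjusted p = 0.0519). With spike-in scaling the same probe was called higher (0.19, adjusted p = 0.0035). A_11_P0000019664 averaged -2.34 ± 0.09 with piroxicam and -2.30 ± 0.05 in control (-0.04, 95% interval -0.16 to 0.08).

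Between drugs, A_11_P054986 was higher with robenacoxib than with piroxicam (0.16, SE 0.02, adjusted p = 0.00062) and than with carprofen (0.27, SE 0.02, adjusted p = 0.000271), and lower with carprofen than with piroxicam (-0.11, SE 0.02, adjusted p = 0.00312). The difference from carprofen had an adjusted p of 0.0656 with slide as a block (0.28). That between carprofen and piroxicam shrank to -0.03 in the authors' deposited table (adjusted p = 0.643) and was 0.06 with spike-in scaling. Without control 3 and piroxicam 3, the differences from piroxicam were 0.16 with robenacoxib and -0.12 with carprofen, both called. For A_11_P0000019664 no pair of groups passed the test among the 6 comparisons; the nearest was robenacoxib against piroxicam (0.17, adjusted p = 0.0514), which was called with spike-in scaling (0.29, adjusted p = 0.00652). The 2 ESRRA probes correlated at r = 0.636 over the 12 arrays.

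With spike-in scaling A_11_P054986 stood higher with carprofen than in control (0.25) and than with piroxicam (0.06). Relative to the 75th percentile, the levels of A_11_P054986 ran from robenacoxib through piroxicam and control to carprofen. Of these steps only that between piroxicam and control was not called. The summed signal of the 5 melanocyte marker genes on the array, as a multiple of the 75th percentile, ran the same way at its ends: 0.686 to 0.72 with piroxicam, 0.656 to 0.677 with carprofen, 0.746 to 0.765 with robenacoxib and 0.71 to 0.732 in control. Of these 5 genes, MITF was well above background on 12 arrays, MC1R on 8, KIT on at most 4, and TYR and EDNRB on 0. The sum was mostly MITF, at -0.55 in control against -5.72 for MC1R. MC1R ran otherwise, highest with carprofen (-5.28) and lowest with piroxicam (-7.11), a difference of 1.82 (adjusted p = 0.0126). That call was lost in the slide-block fit (1.69, adjusted p = 0.081), and it rests on a gene well above background on 8 arrays only. The summed signal of the 4 fibroblast marker genes was lower with each drug than in control, without overlap, at 68.7 to 72.2 with piroxicam, 64.9 to 68.5 with carprofen, 70.3 to 71.3 with robenacoxib and 74.1 to 76.3 in control. All 4 of these, COL1A1, COL1A2, DCN and PDGFRB, were well above background on 12 arrays. COL1A2 was the brightest, at 6 in control against 3.41 for COL1A1, so the sum mostly followed it. Its changes were -0.10, -0.16 and -0.07 with piroxicam, carprofen and robenacoxib, and 0.08, 0.18 and 0.23 with spike-in scaling. PDGFRB went the other way from the sum, by 0.51 (adjusted p = 0.0237), 0.40 and 0.27 with the same drugs. COL1A1 did not change with piroxicam (0), and DCN was lower with each drug. The part of either sum in the PPARD, ESRRA and NR4A1 values was not tested. In RNA from a whole culture, fewer cells that express a gene and less of its RNA per cell cannot be told apart.

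**Figure D2:**
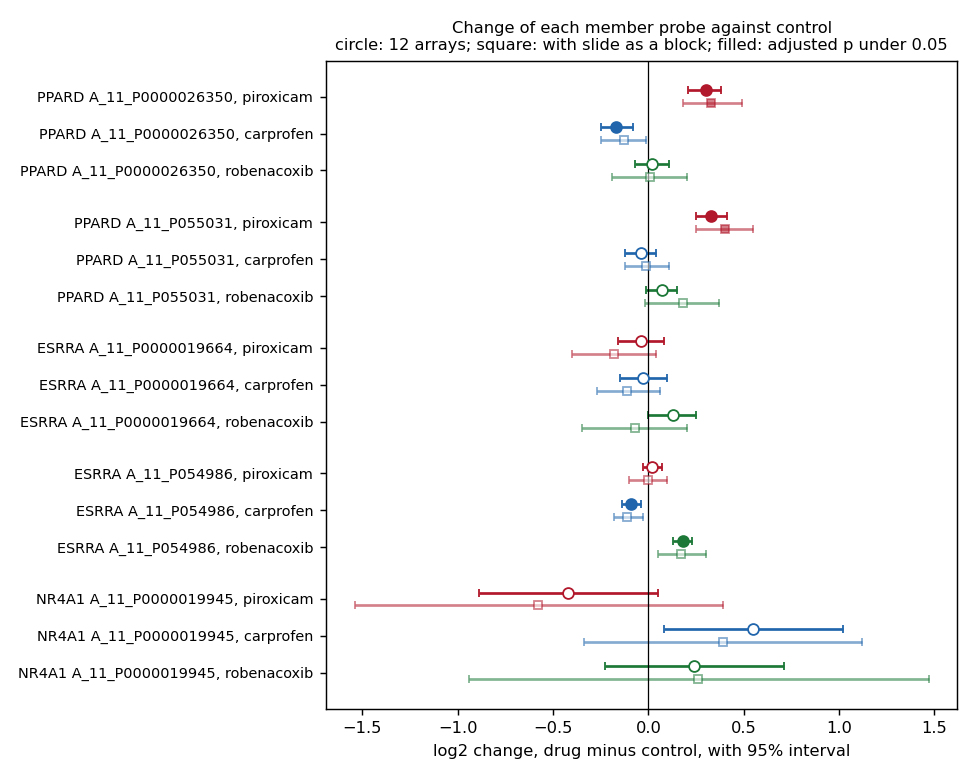
Log2 change of each tested member probe against control for the 3 drugs, with the 95% interval; circles are the fit to 12 arrays, squares the fit with slide as a block, and filled symbols passed an adjusted p of 0.05. The piroxicam points of both PPARD probes are filled in both fits, and the carprofen and robenacoxib points filled without the block are open with it.

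The NR4A1 probe gave low signals that spread widely between arrays. Its processed signal was 70.38, 54.91 and 52.79 with piroxicam, 100.5, 137.5 and 114.8 with carprofen, 60.89, 108.6 and 110 with robenacoxib, and 65.46, 78.77 and 72.38 in control. The 3 carprofen arrays lay above all piroxicam and control arrays, piroxicam 1 lay within the control range, and robenacoxib 1 lay below all 3 controls while the other two robenacoxib arrays lay above them. The scanner software's own error estimate was 10.3% to 16.6% of the NR4A1 signal, where it was 10% on the PPARD probes.

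NR4A1 averaged -5.30 ± 0.23 with piroxicam, -4.33 ± 0.15 with carprofen, -4.63 ± 0.46 with robenacoxib and -4.88 ± 0.15 in control (SD, n = 3 each). It was 1.96-fold higher with carprofen than with piroxicam (0.97, SE 0.21, 95% interval 0.50 to 1.45, adjusted p = 0.00536). Only 1.59% of tested probes differed by as much between these drugs. The difference was 0.88 without control 3 and piroxicam 3 (adjusted p = 0.0352). It was 0.96 on slide 2 alone (adjusted p = 0.0395) and 0.51 after normexp and scaling to the 75th percentile, where it was not called (adjusted p = 0.0573).

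With this probe, 4 of the 5 member probes were called between carprofen and piroxicam, against 37.5% of all tested probes; the fifth was ESRRA A_11_P0000019664. Between robenacoxib and piroxicam 4 of 5 were called as well, against 27.1% of all tested probes, but the NR4A1 call there (0.66, SE 0.21, adjusted p = 0.0437) came from overlapping groups and was lost in 14 of 18 alternatives, among them that without control 3 and piroxicam 3 (0.57, adjusted p = 0.164). Between robenacoxib and carprofen 2 of 5 were called, PPARD A_11_P0000026350 and ESRRA A_11_P054986, against 8.11% of all tested probes. In the slide-block fit the counts were 4 of 5 for carprofen against piroxicam, 3 of 5 for robenacoxib against piroxicam and 0 of 5 for robenacoxib against carprofen, where 30.4%, 18.3% and 0.256% of all tested probes were called.

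Against control no NR4A1 change passed the test. Carprofen differed by 0.55 (1.46-fold, SE 0.21, 95% interval 0.08 to 1.02, adjusted p = 0.0741) with groups that did not overlap, as was so of 47% of tested probes in either direction. The adjusted p was 0.0213 when only these 2 groups were fitted, and with spike-in scaling the difference was 0.89 (adjusted p = 0.00525), whereas on slide 1 it was 0.39 (adjusted p = 0.185). Piroxicam differed by -0.42 (SE 0.21, 95% interval -0.89 to 0.05, adjusted p = 0.169). Robenacoxib differed by 0.24 (SE 0.21, 95% interval -0.23 to 0.71, adjusted p = 0.47), and without robenacoxib 1 by 0.50 (adjusted p = 0.0432).

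NR4A1 levels thus ran from carprofen through robenacoxib and control to piroxicam, and no 2 neighbours in this order differed beyond the test. The piroxicam arrays had the highest detection limits: the lowest signal called well above background was 21.3 to 28.51 with piroxicam, 13.21 to 20.94 with carprofen, 13.12 to 19.86 with robenacoxib and 13.63 to 19.68 in control. The summed signal of the 3 epithelial marker genes on the array also ran in the order of NR4A1, at 0.0633 to 0.0745 with piroxicam, 0.144 to 0.157 with carprofen, 0.109 to 0.116 with robenacoxib and 0.0958 to 0.114 in control; of these, TGM1 was well above background on 12 arrays and DSG1 and DSG3 on 0. The part of either in the NR4A1 values was not tested.

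Over all 4 groups, limma's F-test called both PPARD probes (adjusted p = 8.59e-05 for A_11_P0000026350 and 0.000149 for A_11_P055031), ESRRA A_11_P054986 (7.66e-05) and NR4A1 (0.0195), and not ESRRA A_11_P0000019664 (0.0876). These were 4 of 5 member probes, where 48% of all tested probes were called.

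PPARA and PPARG messages were not well above background in most samples, on either probe. PPARA A_11_P0000019816 had signals of 5.428 to 7.321 with piroxicam, 3.218 to 4.925 with carprofen, 3.339 to 4.22 with robenacoxib and 3.147 to 4.354 in control, and was well above background on 0 of 12 arrays. PPARA A_11_P050901 ranged from 2.96 to 76.71 and was well above background on 2 of 12 arrays, at 76.71 on robenacoxib 1 and 38.73 on control 3. These 2 arrays belong to different groups, and the other arrays of each group were not well above background.

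PPARG A_11_P0000020245 ranged from 2.881 to 6.879 and was well above background on 0 of 12 arrays. PPARG A_11_P051166 ranged from 2.926 to 13.49 and was well above background on 1 of 12, carprofen 3, at 13.49, against a lowest well-above-background signal of 13.21 on that array. No fold is given for these 4 probes, since no group measured them on all its arrays; the data put a bound on their signal in each group and do not show that the messages were absent.

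**Figure D3:**
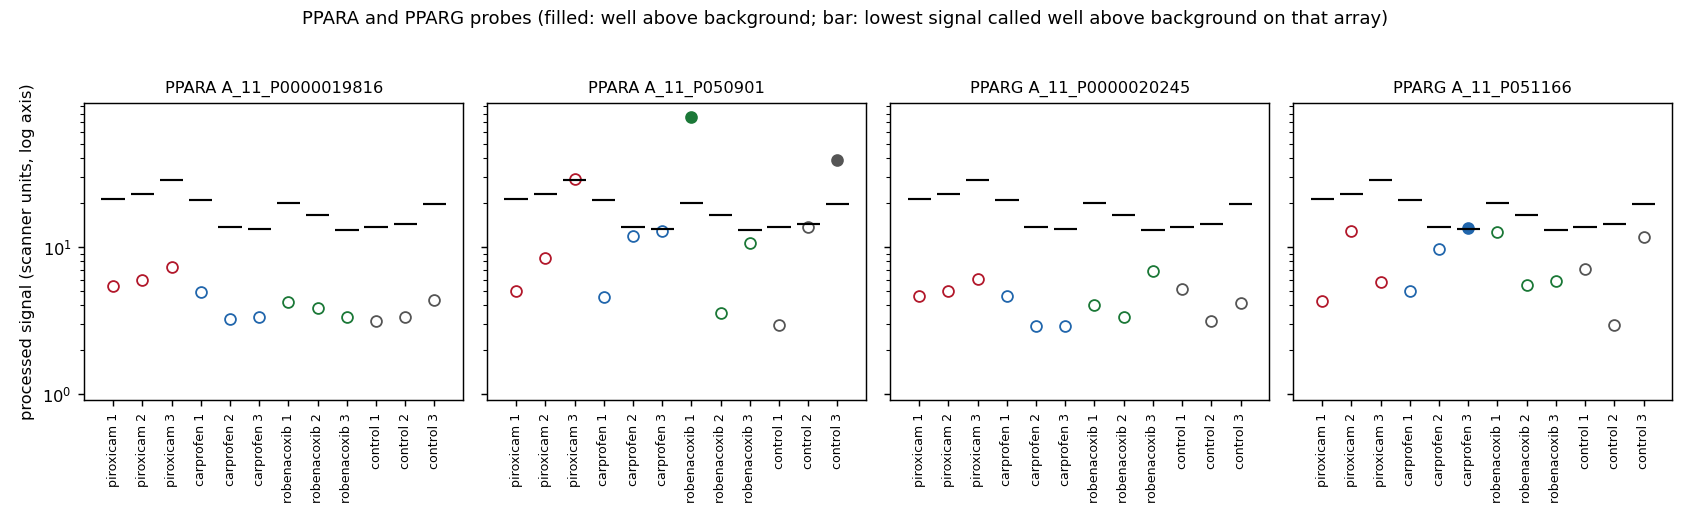
Processed signal of the PPARA and PPARG probes on each array, on a log axis; filled points were well above background and the bar is the lowest signal so called on that array. The filled points are PPARA A_11_P050901 on robenacoxib 1 and control 3 and PPARG A_11_P051166 on carprofen 3; the open point of PPARA A_11_P050901 on piroxicam 3 (28.74) lies just above its bar (28.51), and the other open points lie below theirs.

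Few other genes of these pathways could be read, because accessions were matched to names for 1313 probes only. Of 43 other nuclear receptor genes, 2 were on the array by name and 1, the retinoic acid receptor RARA, was tested. RARA averaged -2.31 ± 0.11 with piroxicam and -2.61 ± 0.05 in control and rose by 0.31 (SE 0.07, adjusted p = 0.0123) on 1 of its 2 tested probes, a call lost in the slide-block fit (0.38, adjusted p = 0.116). It differed by -0.12 with carprofen and -0.10 with robenacoxib, neither past the test, and by 0.23 and 0.20 with spike-in scaling. None of 19 receptor coregulator genes was on the array by name (0 of 19), so coregulators were not analysed here. No value is reported here for the retinoid X receptors that pair with the PPARs.

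Among 62 PPAR target and lipid genes, 8 were on the array by name and 7 were tested. With piroxicam 2 rose and 0 fell, with carprofen 2 rose and 2 fell, and with robenacoxib 0 rose and 2 fell. The median log2 change of the 7 genes was 0.20, 0.28 and 0.12 for piroxicam, carprofen and robenacoxib, where the median over all tested probes was -0.02, -0.022 and -0.03. These medians fell on genes that did not pass the test. They were UCP3 with piroxicam (SE 0.19), and LEP with carprofen and with robenacoxib (SE 0.26 in each). ADIPOQ, the fat cell hormone adiponectin, rose by 0.44 with piroxicam (SE 0.13, adjusted p = 0.0297) and by 0.41 with carprofen (adjusted p = 0.036), each on 1 of 2 tested probes.

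CYP4A11, a fatty acid hydroxylase and a PPARA target in liver, rose by 0.44 with carprofen (adjusted p = 0.00839) on 1 of 3 tested probes. With piroxicam it rose by 0.31 (adjusted p = 0.0481), where another of its 3 tested probes was called the opposite way. CAT, the peroxisomal enzyme catalase, fell by 0.17 with carprofen (adjusted p = 0.000683) and by 0.25 with robenacoxib (adjusted p = 0.000112) relative to the array, and was 0.18 and 0.05 higher with spike-in scaling. UCP2, a mitochondrial carrier protein, fell by 0.18 with carprofen (adjusted p = 0.0222) and by 0.21 with robenacoxib (adjusted p = 0.0163), and was 0.16 and 0.09 higher with spike-in scaling. With slide as a block only CAT with carprofen was still called among these (-0.15, adjusted p = 0.017).

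Of 52 ESRRA target and mitochondrial genes, 2 were on the array by name. VEGFA, a vessel growth factor that ESRRA and PGC-1 coactivators can induce, rose by 0.53 with piroxicam (SE 0.04, adjusted p = 2.83e-05, 2 of 2 probes) and by 0.25 with carprofen (adjusted p = 0.00124), where its other probe was called the opposite way; with robenacoxib it differed by 0.08, which did not pass, and the other probe was called lower. MAOB, a mitochondrial amine oxidase, did not pass in any of these comparisons (-0.86, 0.21 and 0.11 for piroxicam, carprofen and robenacoxib). The median over these 2 genes was -0.16, 0.23 and 0.10 for the same drugs.

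NR4A1 belongs with the immediate early genes, of which 5 others of 36 were on the array by name. With piroxicam 2 of the 5 rose and 1 fell, with carprofen 2 rose and 2 fell, and with robenacoxib 3 rose and 0 fell, with medians of 0.24, 0.17 and 0.26. PTGS2, the inducible cyclooxygenase, fell by 0.49 with piroxicam and rose by 0.47 with carprofen and by 0.30 with robenacoxib. MYC, a growth-driving transcription factor, rose by 0.64 with piroxicam and fell by 0.44 with carprofen relative to the array, a difference of -0.09 under spike-in scaling. CXCL8, a chemokine, rose by 0.49 with piroxicam and by 0.42 with robenacoxib, each called on 4 of 4 tested probes. With carprofen it fell by 0.12, called on 1 of the 4, but was 0.22 higher under spike-in scaling. MCL1, an inhibitor of apoptosis, rose by 0.18 with carprofen and by 0.26 with robenacoxib, and FOSB did not pass in any of the 3. In the slide-block fit 2 rose and 1 fell with piroxicam, 1 rose and 1 fell with carprofen, and 0 passed with robenacoxib.

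Among 27 genes that make, move or release eicosanoids, the lipid family that holds candidate PPAR ligands, 6 were tested. PTGS2 was the 1 called gene with each drug, and the medians of the 6 were 0, 0.10 and 0.07 for piroxicam, carprofen and robenacoxib.

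**Figure D4:**
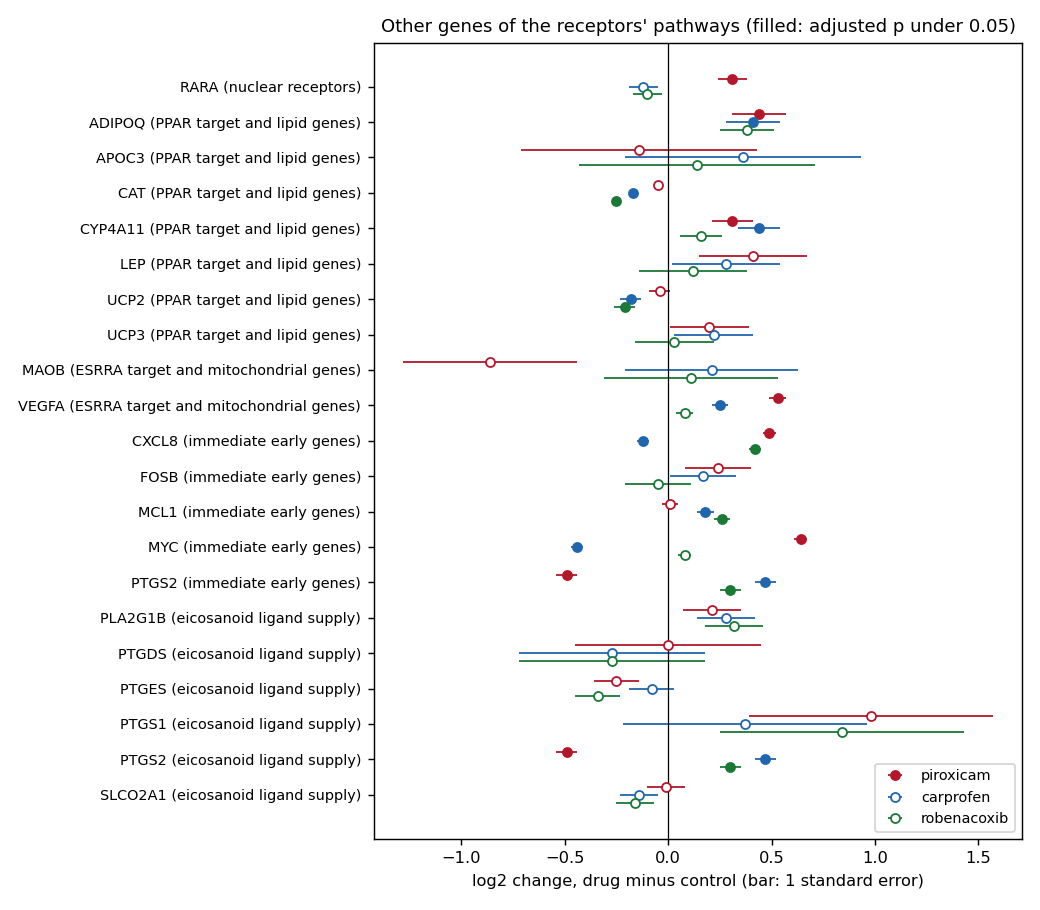
Log2 change against control, with 1 SE, of the other tested genes in the lists of nuclear receptors, PPAR targets, ESRRA targets, immediate early genes and eicosanoid supply; filled points passed an adjusted p of 0.05. PTGS2, which stands in the last 2 lists, and MYC lie on opposite sides of 0 with piroxicam and carprofen.

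Genes whose levels over the 12 arrays were among the most like each member were found among 611 named genes, by Pearson correlation, as a description that includes group and slide differences shared by all probes. For PPARD A_11_P0000026350 these were FLT3 (r = 0.975), MYC (0.96) and NICN1 (0.945), and for A_11_P055031 SNAI2 (0.965) and IL5 (0.952). All 5 were, like PPARD, highest with piroxicam. For ESRRA A_11_P054986 they were SEC61B (0.956), MITF (0.886) and SELENOK (0.831), and for A_11_P0000019664 PPT1 (0.776), SEC61A1 (0.689) and SELENOK (0.635). All 5 of these genes were highest with robenacoxib. For NR4A1 they were MC1R (0.866), which was well above background on 8 arrays, PTGS2 (0.861) and ZBED5 (0.841), all 3 highest with carprofen. Because these genes were picked by correlation with a member on the same arrays, a shared highest group is not a separate result.

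The processing mattered differently for each member, as the plot of 6 ways of processing shows. The piroxicam change of PPARD A_11_P0000026350 was called in 17 of 17 alternatives, between 0.27 and 0.47, and that of A_11_P055031 in 14 of 17, between 0.13 and 0.50. The carprofen difference from piroxicam was called on both PPARD probes in 18 of 18 alternatives and on NR4A1 in 17 of 18, between 0.47 and 1.14.

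**Figure D5:**
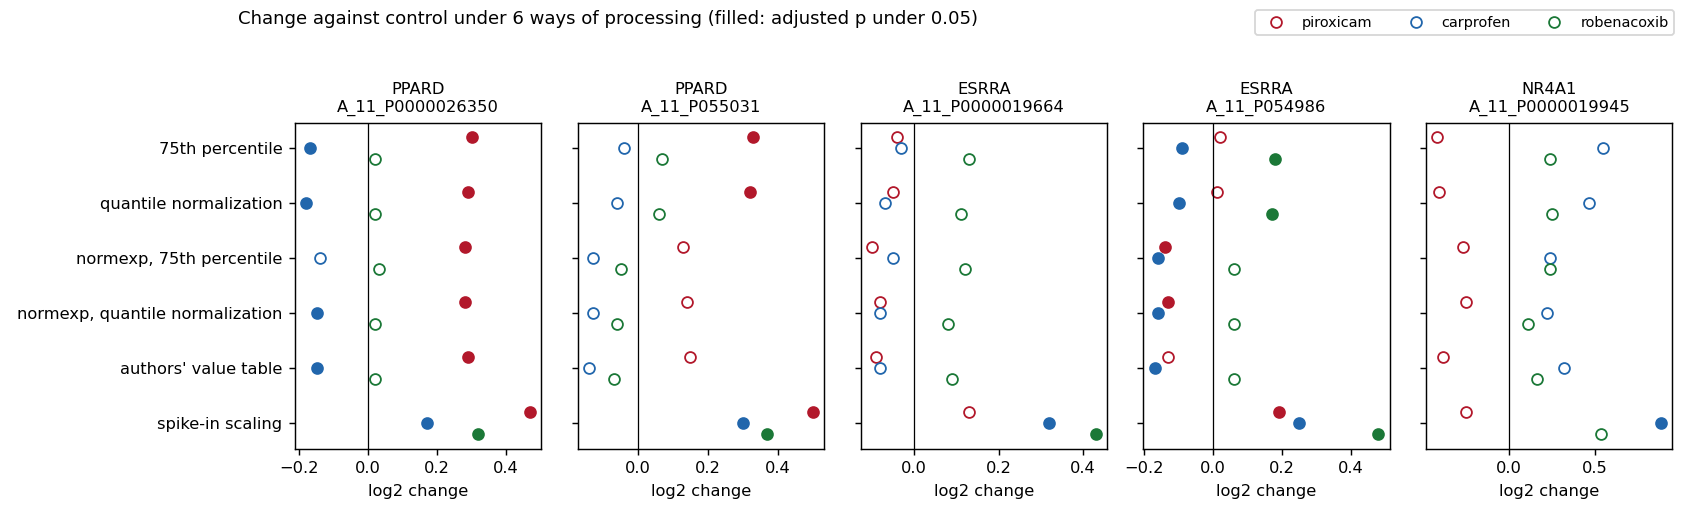
Log2 change of each tested member probe against control under 6 ways of background correction and scaling, with filled points past an adjusted p of 0.05. PPARD A_11_P0000026350 with piroxicam is filled in all 6 rows, while the carprofen points of the PPARD and ESRRA probes, below 0 in the first 5 rows, lie above 0 with spike-in scaling.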

How the data were processed

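The deposited scanner files give each spot's intensity after background subtraction by Feature Extraction 10.7.3.1 (protocol GE1_107_Sep09), per the file headers, with no normalization across arrays. The authors' deposited value table is on a log2 scale, as judged from its values, for which the submitters' processing notes name limma 3.24.15; how its background was corrected is not given in the sources used here.

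Processed signals were taken to log2 and centred on the 75th percentile of their array, without control or outlier-flagged spots, and averaged over spots per probe. Of 43603 probes, 31998 were tested. One model was fitted to 12 arrays with limma 3.58.1 (lmFit and eBayes, 8 residual degrees of freedom) in R 4.3.3, with version 1.17.8 of data.table, two-sided, and adjusted within each of 6 comparisons. The code was tested on simulated data. Precision is limited by having 3 arrays a group, with a median SE of 0.053. No spot was saturated (0).

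Alternatives were quantile normalization, normexp (offset 50) on the median signal, as the files used hold no mean signal, spike-in scaling (8 probes), the authors' table, both filters on dim probes, slide and replicate blocks, single slides, the 2 groups alone, and each array left out. Slide and scan cannot be told apart. Same-numbered arrays did not deviate together (correlations -0.449 to 0.2 over 18 pairs).

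A RefSeq gene table of the assembly UU_Cfam_GSD_1.0, used for names only, named 1313 probes with 832 symbols, of which 614 were tested; the others are unnamed here. Each list gene was represented by its brightest tested probe. Named were every member probe, up to 3 called genes with the largest change per list and drug and the 3 genes most correlated with each tested member; other list genes, and CAT and CXCL8 with carprofen, were named after their values were seen. Members and lists were chosen with earlier results of these data known. One gene among those most like a member is not reported here.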

Additional observations from a re-analysis of the deposited data

How the results depend on the processing

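The counts of member probes called (of 5) moved as follows. With normexp and 75th-percentile scaling they were 1 for carprofen and 0 for robenacoxib against control, 2 for carprofen and 2 for robenacoxib against piroxicam, and 1 for robenacoxib against carprofen. With normexp and quantile normalization robenacoxib gave 0 against control and 1 against carprofen, and in the authors' table piroxicam gave 1 and robenacoxib 0 against control, and robenacoxib 1 against carprofen. With spike-in scaling carprofen gave 5 and robenacoxib 4 against control, and robenacoxib 1 against carprofen. That scaling put the median change of all tested probes against control at 0.322 with carprofen and 0.27 with robenacoxib. The share of all tested probes called is given here for the main and slide-block fits only. Counts under the other alternatives thus have no background share and are not results about the receptors. With slide as a block carprofen and robenacoxib gave 0 against control, and robenacoxib 0 against carprofen. Within slide 1 carprofen gave 0 against control, within slide 3 robenacoxib gave 0 against piroxicam, and with only the 2 groups fitted robenacoxib gave 1 against carprofen. With the replicate block, the count for robenacoxib against carprofen was 1 and no other count moved by over 1.5 times, but the numbers do not pair the arrays. Leaving out 1 array gave 1 to 2 for robenacoxib against control, 1 to 2 against carprofen (1 without carprofen 2, carprofen 3, robenacoxib 1 or robenacoxib 2) and 3 to 4 against piroxicam; the other counts against control stayed at 2 and that of carprofen against piroxicam at 4. The other 90 counts stayed within 1.5 times, but such a count could hold other probes. With normexp and 75th-percentile scaling, the 2 called for piroxicam against control were PPARD A_11_P0000026350, higher, and ESRRA A_11_P054986, lower (-0.14, adjusted p = 0.0476). PPARD A_11_P055031 was not called there (adjusted p = 0.143). With normexp and quantile normalization the same 2 probes were called, ESRRA A_11_P054986 at -0.13 (adjusted p = 0.0493).

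Of the single-probe values, 22 changed sign. With spike-in scaling, carprofen against control gave 0.17 and 0.30 on PPARD A_11_P0000026350 and A_11_P055031, and 0.32 and 0.25 on ESRRA A_11_P0000019664 and A_11_P054986; piroxicam gave 0.13 on A_11_P0000019664, and carprofen against piroxicam 0.06 on A_11_P054986. Under normexp with 75th percentile, normexp with quantile normalization and the authors' table, ESRRA A_11_P054986 with piroxicam was -0.14, -0.13 and -0.13 and PPARD A_11_P055031 with robenacoxib -0.05, -0.06 and -0.07. With slide as a block, ESRRA A_11_P054986 with piroxicam was 0 and A_11_P0000019664 with robenacoxib -0.07. The rest lay near 0: for A_11_P0000019664, carprofen against piroxicam was -0.03 with quantile normalization, -0.04 without piroxicam 2 and -0.03 without carprofen 3, carprofen against control 0 without control 3, 0.01 without carprofen 1 and 0 without control 3 and piroxicam 3 (an alternative chosen after seeing the data), and piroxicam against control 0.01 without piroxicam 2. Leaving out 1 array moved carprofen against piroxicam on that probe between -0.04 and 0.05, and PPARD A_11_P0000026350 with robenacoxib between -0.01 (without robenacoxib 1) and 0.05. The cause of these shifts was not tested. NR4A1 signals of 52.79 to 137.5 lay near the lowest signals called well above background (13.12 to 28.51), and most PPARA and PPARG signals lay below them, which limits what can be read of these genes.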
